A study of Mus musculus with 4 samples.

Results

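Sister blastomeres are cells of the same embryo, and those of late 2-cell (L2C) and 4-cell mouse embryos were compared with cells of other embryos of their stage. Membership was set by name: each L2C or 4-cell cell of the gene table was taken when its embryo had 2 or more cells there. This gave 27 of the 161 cells in the table, 10 from 5 L2C embryos (numbers 2 to 6, 2 cells each) and 17 from 5 4-cell embryos (4, 2, 3, 4 and 4 cells in embryos 1 to 5). Full-length cDNA of single blastomeres had been read on a PacBio instrument with a barcode for each cell and a unique molecular identifier (UMI) for each molecule. The embryos came from C57BL/6J females mated with DBA/2NCrl males by the design text (DBA/2J in the sample labels), 6 to 8 weeks old, and were collected 46 to 48 hours (L2C) or 54 to 56 hours (4-cell) after the hormone injection that triggers ovulation (hCG). Early 2-cell (E2C, 30 to 32 hours) and 8-cell (68 to 70 hours) embryos served as neighbouring stages. Cell names give an embryo and a blastomere but not 1 of the 3 sequencing runs, so embryo and run cannot be told apart. The authors followed the cells of each embryo and treat cells with the same number as 1 embryo, which was kept here, although reuse of a number between runs could not be checked from the names.

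The first cleavages divide the cytoplasm of the egg without growth, so stored mRNAs and mitochondria pass to the daughter cells by partition. In the mouse the embryonic genome is switched on mainly during the 2-cell stage, and each blastomere then adds its own transcripts to what it inherited. Any difference between sisters has to be set against counting noise, because a sample of molecules from the same pool differs by chance at each draw.

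L2C sister cells held 42715 to 67963 UMIs, while 4-cell cells held 4985 to 43842 with a median of 32466. Each cell was therefore thinned at random to 15000 UMIs. Cell 3 of 4-cell embryo 2 (4985 UMIs) fell short, which left 4-cell embryos 1, 3, 4 and 5 with 15 cells. The remaining cell of embryo 2 (20426 UMIs) and a lone L2C cell numbered embryo 1 (17971 UMIs) served only as partners from another embryo. Depth also differed between 4-cell embryos before thinning, at 21824 to 32466 UMIs in embryo 1, 18683 to 21967 in embryo 3, 37765 to 43842 in embryo 4 and 36485 to 42039 in embryo 5. Thinning gave these cells equal totals, but whether library depth moved with other properties of an embryo was not tested.

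Marker genes differed in level between stages, with overlap between L2C and 4-cell cells. The summed thinned UMIs of late 2-cell markers were 13, 30.5 and 38 (lowest, median, highest) in L2C cells and 7, 14 and 23 in 4-cell cells, against a median of 2.5 in E2C and 0 in 8-cell cells. Most of this sum was 1 gene of the 8, B020004C17Rik, with means of 26.8 in L2C and 11.6 in 4-cell cells. Usp17le had 0 UMIs in both stages. Oocyte markers had medians of 104 in E2C, 17.5 in L2C, 35 in 4-cell and 16 in 8-cell cells, so their sum fell after E2C but not steadily. The most abundant of them was Oosp1 in E2C (mean 53.9) and L2C (6) and H1foo in 4-cell (17.8) and 8-cell cells (8.565). Y-linked UMIs, summed over 8 genes before thinning, were 5 and 3 in L2C embryo 2 and 2 and 5 in embryo 6, and 0 in both cells of embryos 3, 4 and 5. At the 4-cell stage they were 5, 3, 4 and 1 in embryo 4, 1, 1, 0 and 3 in embryo 5, and 0 in each cell of embryos 1, 2 and 3. In 4-cell embryo 5 a cell with 0 thus stood beside a sister with 3. In each other embryo either all cells had Y-linked UMIs or all had 0. A count of 0 is compatible with up to 3 UMIs.

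Sister cells resembled each other more than cells of other embryos in each of the 9 embryos that could be thinned to 15000 UMIs. Likeness was measured by a pair index, the mean over genes of the squared difference between the cells' UMIs divided by their sum, which is 1 when counting noise is the only difference. In L2C embryos 2 to 6 the sister pair had an index of 1.059, 1.099, 1.044, 1.149 and 1.082, and the same cells paired with cells of other embryos had means of 1.241, 1.223, 1.258, 1.257 and 1.271. The sister mean was 1.087 (SD 0.0410, n = 5 embryos) and the non-sister mean 1.250 (SD 0.0182), a mean difference of -0.163 (SD 0.0453). The exact sign-flip test over embryos, two-sided, gave p = 0.0625, the smallest value 5 embryos allow. In 4-cell embryos 1, 3, 4 and 5 the sister index was 1.083, 1.106, 1.098 and 1.095 and the non-sister index 1.308, 1.243, 1.251 and 1.245. The means were 1.096 (SD 0.00977, n = 4 embryos) and 1.262 (SD 0.0310), with a mean difference of -0.166 (SD 0.0401) and an exact sign-flip p = 0.125, again the smallest possible. The direction held in each of these embryos, and with so few embryos per stage these tests could not fall below 0.05.

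**Figure D1:**
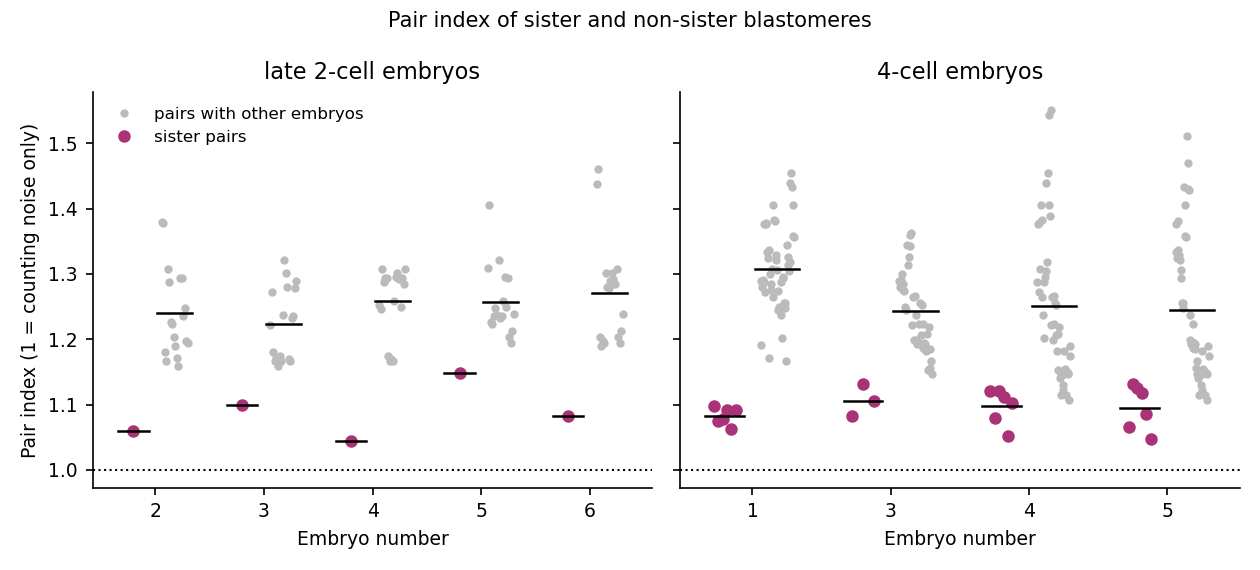
Pair index of each sister pair and each pair of cells from different embryos after thinning to 15000 UMIs per cell. An index of 1 is counting noise alone.

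Single pairs showed the same separation. The 5 L2C sister pairs ranged from 1.044 to 1.149 with a median of 1.082, below all 50 non-sister pairs (1.159 to 1.460, median 1.249). The 21 sister pairs of the 4-cell stage ranged from 1.047 to 1.132 with a median of 1.091, and 99 non-sister pairs from 1.107 to 1.551 with a median of 1.264. Only 5 of the 99 lay below the highest sister pair, all of them between embryos 4 and 5, whose mean index was 1.145. Among embryos with sisters, embryo 1 stood furthest away, with means of 1.326 and 1.332 to embryos 4 and 5 and 1.289 to embryo 3. The lone cell of embryo 2 had a mean of 1.193 to embryo 1 and 1.355, 1.472 and 1.46 to embryos 3, 4 and 5. Embryos of the same stage thus differed from one another by unequal amounts, and a link to run or litter was not tested.

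The lone pair left out by thinning behaved differently. At 4000 UMIs per cell, the cells of 4-cell embryo 2 had a sister index of 1.141 against 1.144 with cells of other embryos, while the other 4-cell embryos had 1.023 to 1.039 against 1.089 to 1.115. Mitochondrially encoded mRNA made up 15.8% (95% CI 15.3 to 16.3) of UMIs in 1 of these cells and 6.70% (6.04 to 7.43) in the other. A reused embryo number, the low count of UMIs and a difference between true sisters cannot be told apart here.

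Whether sister likeness changed from L2C to 4-cell depended on the measure. The sister index was higher by 0.00887 at the 4-cell stage (exact permutation test, two-sided, p = 0.714; 0.804 adjusted over 9 stage comparisons). The sign turned with genes of mean 5 or more (-0.0501), with isoforms (-0.0104), without L2C embryo 4 (-0.00185) and with 1 minus the Spearman correlation as the distance (-0.0607, exact p = 0.00794), so no direction can be stated. Across the neighbouring stages the sister index was 1.052 in E2C and 1.155 in 8-cell embryos, and the non-sister index 1.130 and 1.362. The gap between sisters and non-sisters was wider in L2C than in E2C by -0.0846 (exact permutation p = 0.0159, adjusted 0.0714), because the non-sister index rose by 0.12 (exact p = 0.00794, adjusted 0.0714). The 8-cell sister index exceeded that of 4-cell embryos by 0.0594 (exact p = 0.0286, the smallest possible, adjusted 0.0857). Differences between embryos therefore grew more between E2C and L2C than differences between sisters did, with none of the adjusted values below 0.05.

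Intact oocytes and pieces of oocytes from a separate run served as a reference for spread between libraries. With isoforms thinned to 10000 UMIs, 6 pairs of intact oocytes had a median index of 1.011, 15 pairs of pieces from oocytes cut in 2 had 1.009 and 15 pairs from oocytes cut in 4 had 1.012. L2C sisters had a median of 1.047 (1.028 to 1.124) and 4-cell sisters 1.050 (1.026 to 1.091), against 1.188 and 1.204 for non-sisters. The medians of sister blastomeres thus lay above those of oocyte pairs. These pairs include differences between oocytes and come from another run and cell type, so they cannot replace technical replicates of blastomeres.

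In 4-cell embryos with 4 cells, some pairs of cells were closer than others. This view was chosen after the values were seen and is a description only. In embryo 4 cells 1 and 3 (1.080) and cells 2 and 4 (1.052) were closest, while the other pairs had 1.102 to 1.120. In embryo 5 cells 1 and 2 (1.065) and cells 3 and 4 (1.047) were closest, with 1.085 to 1.132 for the other pairs. Embryo 1 showed a weaker form, with 1.075 for cells 1 and 3, 1.063 for cells 2 and 4 and 1.078 to 1.098 for the rest. Averaged over 5 thinning draws, the index within these pairs minus that across them was -0.0398 in embryo 4, -0.0519 in embryo 5 and -0.0216 in embryo 1. The same pairs were the 2 lowest in 5 of 5 draws for embryos 4 and 5 and in 4 of 5 for embryo 1, but the draws sample the same UMIs and are no independent support. With mitochondrially encoded and ribosomal protein genes removed and the cells thinned again, the indices within and across were 1.077 and 1.104 in embryo 4, 1.065 and 1.119 in embryo 5 and 1.069 and 1.099 in embryo 1. In embryo 4 the difference was -0.0478 with these genes in draw 1 (-0.0304 in draw 4) and -0.0271 after both changes. In draw 1 and after both changes it was -0.059 and -0.0535 in embryo 5 and -0.0208 and -0.02945 in embryo 1. The 3 embryos thus did not change alike. With isoforms the same pairs were the 2 lowest in embryos 4 and 5 but not in embryo 1. The index within minus that across was then -0.0229, -0.0328 and -0.0220 in turn, so embryo 1 lost the rank at a similar difference. Names do not say which cells share a mother blastomere, and some pairing must be lowest in any embryo, so a link to the second cleavage was not tested.

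**Figure D2:**
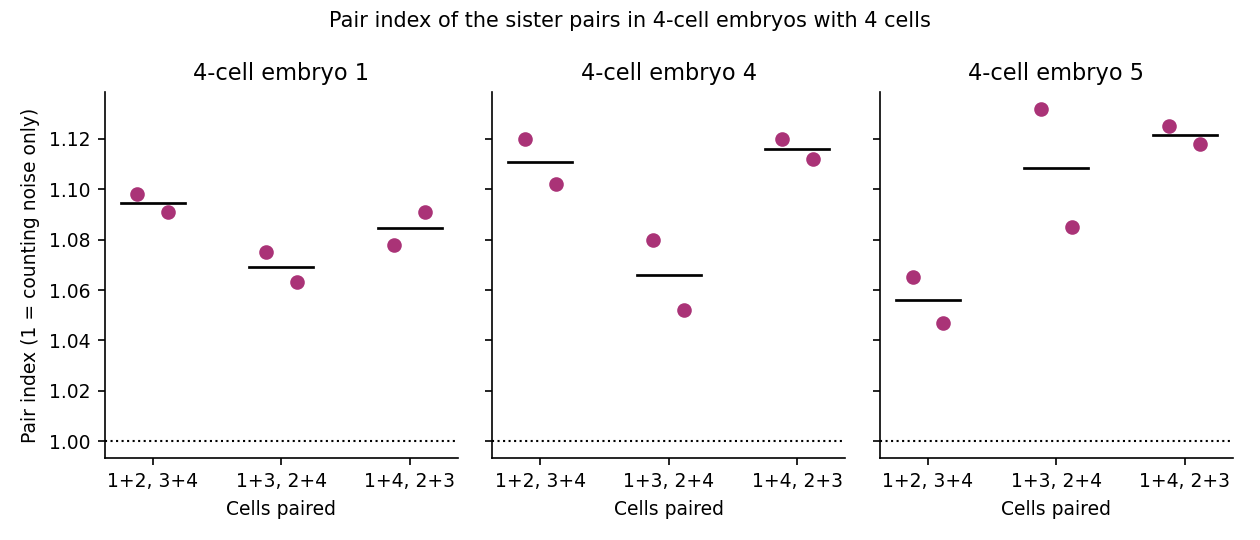
Pair index of the sister pairs in 4-cell embryos 1, 4 and 5, grouped by the 3 ways to divide 4 cells into pairs. Black bars are means of the pairs in a group.

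Gene by gene, few genes passed the test of variation between sisters at 15000 UMIs, and many more with all recovered UMIs. The Poisson dispersion test (SciPy, Benjamini-Hochberg adjusted p under 0.05) covered genes with a mean of 5 or more thinned UMIs and called 7 of 515 genes in L2C (1.36%; 72 with unadjusted p under 0.05). At the 4-cell stage it called 29 of 581 genes (4.99%; 112 unadjusted), with 11 degrees of freedom against 5 in L2C, so the counts of the stages do not share the same power. The median gene had a sister index of 1.21 in L2C and 1.19 at the 4-cell stage, and a between-embryo index of 2.20 and 2.59. Between-embryo variation exceeded sister variation in 351 L2C genes (68.2%) and 449 4-cell genes (77.3%). The between-embryo index weights each embryo mean by its number of cells, so these values and shares cannot be compared between the stages. The test treats any spread beyond counting, including uneven capture and amplification, as variation.

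The number of called genes depended on the draw and on single embryos. At the 4-cell stage the 4 other thinning draws gave 12, 10, 16 and 16 calls, so the draw used was the highest, and leaving out embryo 1, 3 or 4 gave 16, 19 and 7. In L2C the other draws gave 5 to 6, leaving out embryo 3 gave 4, and leaving out embryo 5 gave 0 in the Poisson dispersion test (54 unadjusted; 57 with all recovered UMIs). A depth of 4000 gave 0 in L2C (8 unadjusted) and 25000 gave 21. For 4-cell embryos 4000 gave 7 and 25000 gave 44, but there the cells changed too, to 17 cells of 5 embryos and 11 cells of 3 embryos. When all recovered UMIs were used with the total of each cell as exposure, 121 of 515 L2C genes (23.5%) and 125 of 581 4-cell genes (21.5%) passed, 40 of them shared, and these included all 7 and 27 of the 29 genes. Calls in all 5 draws were limited to mt-Co1 in L2C and to mt-Cytb, mt-Atp6, mt-Nd4, mt-Co1, mt-Nd1 and Dppa3 at the 4-cell stage. The number of called genes thus rests on the processing, and most genes called in all draws were mitochondrial.

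**Figure D3:**
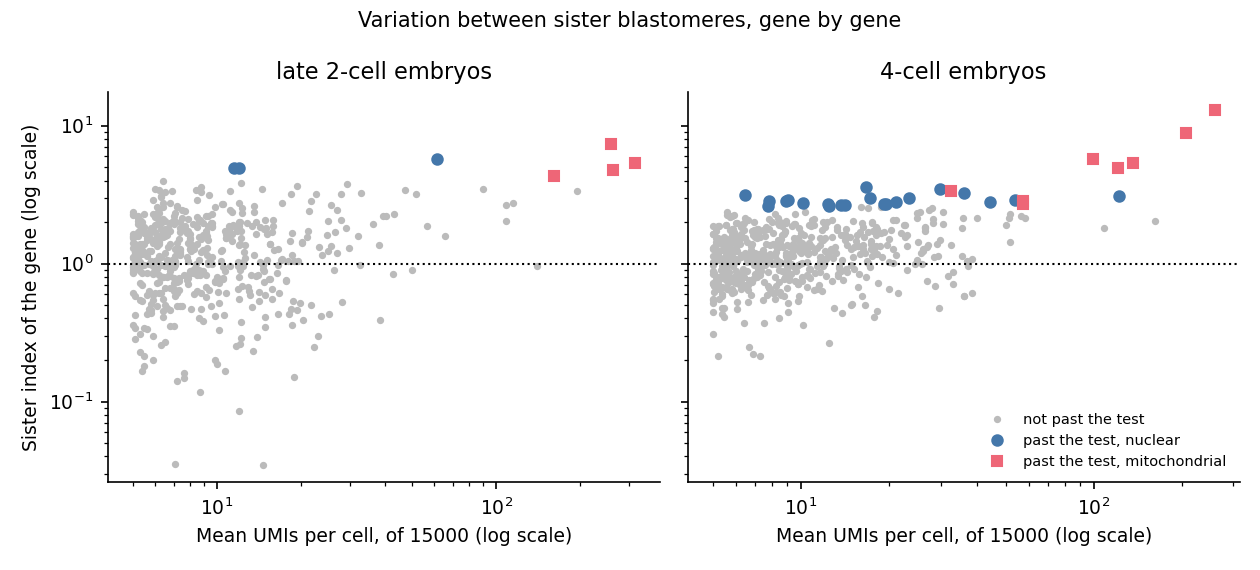
Sister index of each tested gene against its mean of thinned UMIs, with called genes marked.

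Mitochondrially encoded mRNAs included the genes furthest from counting noise between sisters. In L2C embryo 5 their thinned sum was 2351 in cell 1 and 1609 in cell 2, a ratio of 1.461, and all 12 tested mitochondrial genes were higher in cell 1. As a share of recovered UMIs this was 15.7% (95% CI 15.4 to 16.0) against 10.3% (10.0 to 10.5). The sums were 1467 and 1339 in embryo 2, 1663 and 1597 in embryo 3, 1294 and 1364 in embryo 4, and 1454 and 1421 in embryo 6. A single L2C embryo thus carried most of the L2C difference. In 4-cell embryo 1 the sums were 1868, 1799, 1353 and 2185, in embryo 3 they were 961, 919 and 890, in embryo 4 855, 552, 964 and 576, and in embryo 5 542, 533, 710 and 766. The ratio of highest to lowest sister was 1.615, 1.080, 1.746 and 1.437 in turn, so 3 of 4 embryos showed it. Other list sums also differed among these cells. Housekeeping sums were 87 and 138 in L2C embryo 5 and 105, 98, 134 and 115 in 4-cell embryo 1. They were 114, 143, 105 and 142 in embryo 4 and 120, 114, 106 and 108 in embryo 5. Ribosomal protein sums were 955 and 917 in L2C embryo 5. In 4-cell embryos 1, 4 and 5 they were 1329, 1341, 1367 and 1180, 1624, 1812, 1622 and 2164, and 1499, 1544, 1374 and 1504. A link between lists was not tested. The closest cells in embryos 4 and 5 also had similar mitochondrial sums, but those in embryo 1 did not. E2C sisters had ratios from 1.019 to 1.616 and 8-cell sisters from 1.441 to 2.078, so unequal mitochondrial mRNA was present before and after these stages.

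**Figure D4:**
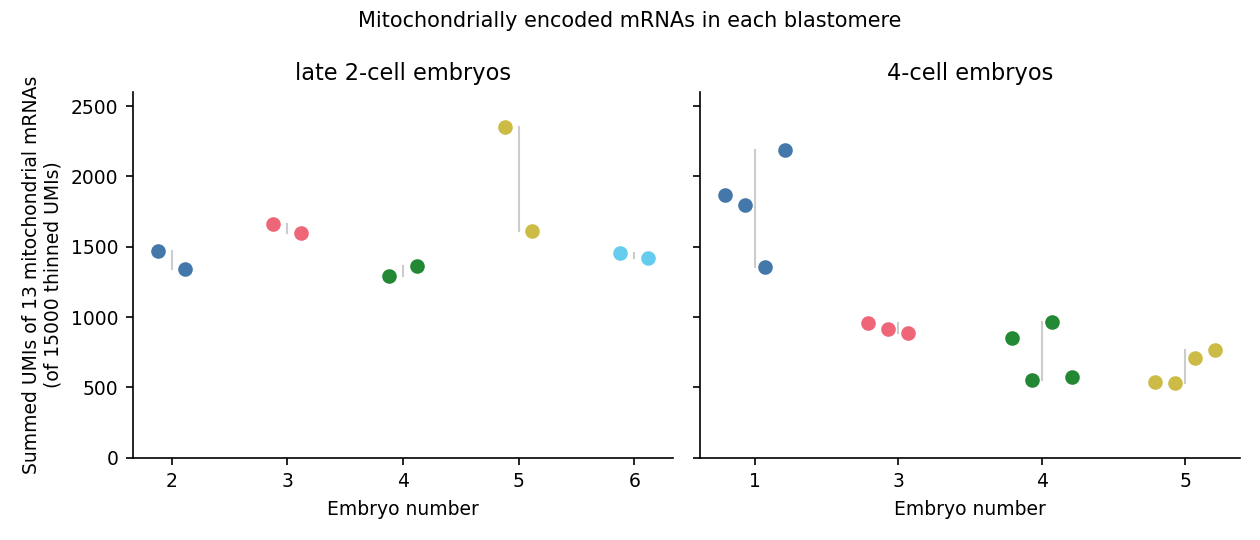
Summed thinned UMIs of mitochondrially encoded mRNAs in each sister cell, by embryo.

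Single mitochondrial genes followed the sum in L2C embryo 5 and 4-cell embryo 1, and less closely elsewhere. In L2C, mt-Co1, a core subunit of cytochrome c oxidase, had 422 and 271 UMIs in embryo 5 and 199 and 192, 262 and 281, 202 and 232, and 269 and 247 in embryos 2, 3, 4 and 6 (sister index 7.34, Poisson dispersion adjusted p = 3.54e-04). mt-Cytb, the cytochrome b subunit of complex III, had 406 and 298 in embryo 5 and 235 and 198 in embryo 2 (index 4.81). At the 4-cell stage mt-Cytb had 415, 422, 344 and 512 in embryo 1, 199, 167 and 152 in embryo 3, 245, 161, 294 and 152 in embryo 4, and 186, 143, 234 and 256 in embryo 5 (index 13.04, adjusted p = 1.91e-22, spread beyond counting 21.6% of the mean). The highest cell of each 4-cell embryo for mt-Cytb was also the highest for the sum. mt-Atp6, a subunit of ATP synthase, had 457, 467, 293 and 475 in embryo 1 and 122, 92, 159 and 94 in embryo 4 (index 8.78, adjusted p = 2.49e-13). mt-Nd4, part of complex I, had 188, 162, 132 and 249 in embryo 1 (index 5.69, adjusted p = 5.93e-07). At the 4-cell stage mt-Cytb, mt-Atp6, mt-Co1 and mt-Nd1 were called whichever embryo was left out. As a list, 4 of 12 mitochondrial genes in L2C and 8 of 12 at the 4-cell stage were called, against 1.36% and 4.99% of all tested genes, with a median sister index of 3.27 and 3.09 against 1.21 and 1.19. At equal spread relative to the mean, the index rises with the mean of a gene. All tested genes were not matched to these for abundance.

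Most nuclear calls depended on 1 embryo or 1 draw. In 4-cell embryos 5 mitochondrial genes stood above the highest nuclear gene, Sfn. In L2C only mt-Co1 stood above all nuclear genes, and Omt2a, Rps27 and Mphosph6 lay among the other mitochondrial genes. The spread of nuclear genes relative to the mean could still be larger, at 39.6% for Sfn and 57.4% for 2310040G24Rik against 21.6% for mt-Cytb in 4-cell embryos. In L2C it was 27.7% for Omt2a, 57.0% for Rps27 and 58.2% for Mphosph6. The called mitochondrial genes of L2C had 11.8% (mt-Atp6) to 15.7% (mt-Co1). Dppa3 (Stella), a maternal protein that guards methylation of the maternal genome (chromosome 6, 122626410 to 122630272 in mm10), had 167, 121, 168 and 98 UMIs in 4-cell embryo 1. It had 133, 116 and 121 in embryo 3, 118, 88, 105 and 97 in embryo 4, and 112, 133, 125 and 123 in embryo 5 (index 3.09, Poisson dispersion adjusted p = 0.0189). It passed in 5 of 5 draws, but its index fell to 0.978 without embryo 1, so at the 4-cell stage its call rested on that embryo. In L2C it was not called after thinning (index 2.76, adjusted p = 0.235) but passed with all recovered UMIs (index 5.32), with 883.1 and 674.1 copies per 100000 in embryo 3. Sfn, encoding the cell cycle adaptor 14-3-3 sigma, had 12, 8, 11 and 2 in embryo 1, 8, 23 and 7 in embryo 3, 15, 27, 10 and 31 in embryo 4, and 20, 30, 30 and 17 in embryo 5 (index 3.62, adjusted p = 0.00376; 3 of 5 draws). Mt1, a metal-binding metallothionein next to Mt2 on chromosome 8, had 54, 34, 29 and 34 in embryo 1 and 21, 35 and 55 in embryo 3 (index 3.24, adjusted p = 0.0127; 4 of 5 draws), and how reads were shared between these related genes is uncertain and was not tested.

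Further genes met the naming rule at the 4-cell stage in this draw only. The lincRNA 2310040G24Rik had 15, 10, 6 and 2 UMIs in embryo 4 and 1, 3, 12 and 4 in embryo 5 (index 3.13). Cox6c, a nuclear subunit of cytochrome c oxidase, had 16, 4, 6 and 4 in embryo 1 and 14, 10, 8 and 20 in embryo 4 (index 2.88, adjusted p = 0.0330). Eif4e, the cap-binding translation factor, had 22, 8, 15 and 17 in embryo 1 and 8, 26, 30 and 15 in embryo 4 (index 2.70). These are low counts, and each was called in 1 of 5 draws, as were Ubxn1, which encodes a cofactor of the p97 ATPase, and Rplp2, a ribosomal stalk protein (20, 43 and 39 in embryo 3; index 3.50). With all recovered UMIs 2310040G24Rik, Cox6c, Eif4e, Ubxn1 and Rplp2 passed. The chromatin protein gene Hmgb1 did not (index 1.94, Poisson dispersion adjusted p = 0.108). In L2C the genes of this kind were Rps27, a ribosomal protein gene with 24 and 7 in embryo 3 (index 4.90, adjusted p = 0.0182), and Mphosph6, an exosome-associated gene with 19 and 2 in embryo 3 and 22 and 8 in embryo 4 (index 4.89). Both were called in 1 of 5 draws, and both passed with all recovered UMIs. Support for these genes thus rests on depth.

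With more UMIs, some mitotic genes differed between L2C sisters. These genes and the 3 embryos compared for them were chosen after the values were seen, and Kpna2 and Set are not in the G2/M list. Kpna2, an importin that carries proteins into the nucleus, had 39.5 and 84.8 copies per 100000 UMIs in cells 1 and 2 of embryo 3, 51.3 and 30.4 in embryo 4, and 43.0 and 130.1 in embryo 5, against 77.0 and 78.3 in embryo 2 and 71.8 and 54.4 in embryo 6 (index 7.95, adjusted p = 7.27e-06). Cdc20, an activator of the anaphase-promoting complex, had 34.8 and 49.3, 54.6 and 28.1, and 34.4 and 112.8 in embryos 3, 4 and 5 (index 6.64), and the cyclin gene Ccnb1 79.0 and 177.4, 139 and 105.3, and 120.5 and 159.8 (index 5.69). In each of the 3 embryos the same sister was higher for these genes and for Ccna2 and Set. In embryos 2 and 6 Kpna2, Cdc20 and Ccnb1 did not share a direction. There Cdc20 had 105.1 and 74.3, and 45.5 and 44.1, and Ccnb1 had 192.4 and 176.7, and 150.5 and 161.9. Some other G2/M genes did not follow in the 3 embryos either. Cks2, which binds cyclin-dependent kinases, ran the other way in embryo 5 with 457.9 and 266.4, and the related gene Cks1b in embryo 3 with 53.71 and 27.59 and in embryo 5 with 82.62 and 70.52. The summed G2/M list was 769.4 and 987.4 per 100000 in embryo 3 and 1167 and 910.7 in embryo 4. In embryo 5 it was 1186 and 1122, so it followed Kpna2, Cdc20 and Ccnb1 in 2 of the 3 embryos. It was 1116 and 1125 in embryo 2 and 1127 and 1342 in embryo 6, where Kpna2 was higher in cell 1. Among 8 tested G2/M genes 5 passed, against 23.5% of all tested genes, with a median index of 3.83 against 1.66. In 4-cell embryos 3 of 9 passed, against 21.5%, with a median of 1.79 against 1.45. With 15000 UMIs 0 of the 8 passed in L2C. At 40000 UMIs Cks2, Cdc20 and Ccnb1 of the list passed, and so did Kpna2 and Set, which are outside it. Cell cycle position was not tested.

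Few members of the other gene lists were called after thinning, when 1.36% of all tested genes in L2C and 4.99% at the 4-cell stage were (23.5% and 21.5% with all recovered UMIs). Of the ribosomal protein genes 1 of 69 was called in L2C and 2 of 75 at the 4-cell stage, with median indices of 0.973 and 1.22 against 1.21 and 1.19 over all genes (11 and 19 called with all recovered UMIs). Their summed UMIs nonetheless differed between the cells of 4-cell embryo 4, at 1624, 1812, 1622 and 2164. Of maternal genes 0 of 6 and 1 of 7 were called (2 and 3 with all recovered UMIs), and of abundant housekeeping genes 0 of 5 and 0 of 7 (2 and 2). Medians were 1.12 and 1.27 for maternal genes, 1.93 and 1.15 for housekeeping genes and 2.575 and 1.325 for G2/M genes, so the last 2 lists lay above all genes in L2C although none of their members was called. With all recovered UMIs the housekeeping median in L2C was 0.978 against 1.66, below all genes. The stress gene Hspa8, a constitutive chaperone, was called at the 4-cell stage with 9, 14, 8 and 4 UMIs in embryo 1 and 14, 3 and 5 in embryo 3 (index 2.63, adjusted p = 0.0476), but in 1 of 5 draws and in 0 of 4 fits with an embryo left out. With all recovered UMIs it passed at the 4-cell stage (index 3.71) and in L2C (index 6.06). No lineage or blastomere-asymmetry gene reached the mean of 5 needed for the test. The most abundant, the histone deacetylase gene Hdac1, had means of 3.1 and 3.93, and Cdx2, Gata3 and Eomes had 0 UMIs in each thinned cell of both stages, which a true total of up to 3 UMIs over the cells of a stage would allow. Lineage regulators were thus not compared between sisters under the chosen mean.

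Between L2C embryos, Omt2b and Omt2a on chromosome 9 had the lowest p values. The limma F-test of embryo drew the sister spread of each gene towards a trend over all genes. That trend weighed 90.93 degrees of freedom against 5 from sister cells, so small p values lean on it. The test called 71 of 3185 genes (2.23%). The count was 25 to 89 in other draws, 39 with a pseudocount of 0.5, 0 without the filter on low genes (957 unadjusted), 0 at 4000 UMIs (77 unadjusted), 477 and 458 in edgeR with and without TMM, and 148 in DESeq2. It was 1, 21, 10 and 4 without embryo 2, 3, 4 or 5 and 0 without embryo 6. The weight of the trend fell as well, to 8.147, 21.59, 17.94, 8.782 and 6.165 degrees of freedom in turn. Unadjusted counts in these fits were 363, 409, 305, 381 and 361. What lowered the adjusted counts was not tested. The 8 genes with the lowest p values passed in edgeR and DESeq2. Of these 8, draws 2 and 5 kept 6 each and draws 3 and 4 kept all. Without embryo 2, 3, 4, 5 or 6 the number kept was 1, 7, 8, 3 and 0. It was 0 without the filter on low genes and 0 at 4000 UMIs. Omt2b, an oocyte maturation gene, had 34 and 25, 122 and 117, 84 and 96, 41 and 27, and 5 and 14 UMIs in the sisters of embryos 2 to 6 (log2 range of embryo means 3.67, limma adjusted p = 3.10e-16). Omt2a had 22 and 28, 141 and 122, 104 and 106, 35 and 11, and 10 and 35 (range 2.73, adjusted p = 3.41e-13). Omt2a (78311972 to 78314796) and Omt2b (78327589 to 78329620) are neighbouring genes of 1 family, so how reads were shared between them is uncertain and was not tested, but both were high in embryos 3 and 4. Omt2a was also among the sister calls (index 5.70), in 1 of 5 draws. Dppa5a, an RNA-binding protein gene of pluripotent cells nearby (78367052 to 78368177), followed another order with 57 and 58, 22 and 13, 23 and 40, 9 and 7, and 49 and 41 (range 2.71, adjusted p = 5.66e-08). With all recovered UMIs Dppa5a also varied between L2C sisters (index 9.03), most in embryo 4 with 152.3 and 311.4 copies per 100000.

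Mdm4, an inhibitor of p53, differed between L2C embryos while sisters matched. It had 14 and 12, 29 and 27, 15 and 18, 2 and 4, and 7 and 7 UMIs (log2 range 2.90, limma adjusted p = 1.20e-04), with a sister index of 0.233. Sister spread enters this F-test in part, so the low index of a gene picked by it is a description and not separate support. Bcl2l10, a Bcl-2 family member of oocytes, had 0 and 0, 0 and 1, 8 and 19, 6 and 7, and 9 and 6 (log2 range 3.75, adjusted p = 1.51e-05), with sisters apart in embryo 4. The unnamed gene AC133103.5 had 2 and 1, 1 and 3, 14 and 14, 9 and 8, and 21 and 11 (adjusted p = 1.41e-04). Both Bcl2l10 and AC133103.5 were low in embryos 2 and 3 and higher in embryos 4 to 6. mt-Nd1 had 126 and 127, 155 and 145, 153 and 159, 347 and 250, and 246 and 231 (adjusted p = 8.81e-08), and its sisters differed in embryo 5. Steps between embryos could belong to the embryo or to its run, which cannot be told apart.

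**Figure D5:**
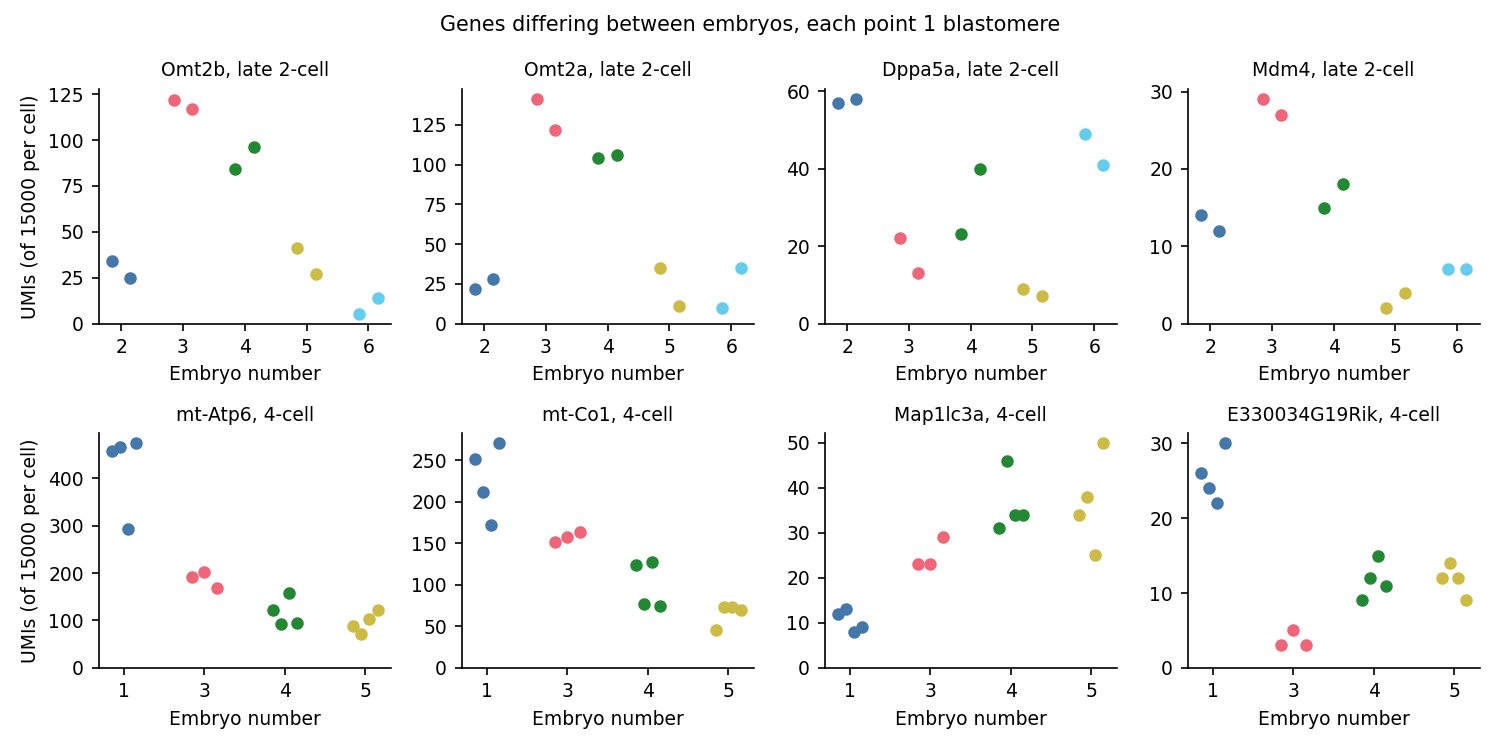
Thinned UMIs of genes that differed between embryos, in each sister cell of each embryo.

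Between 4-cell embryos, embryo 1 accounted for much of the difference. Here limma gave the trend over all genes infinite weight, so p values did not use a gene's own sister spread. It called 153 of 2828 genes (5.41%), and 88 of them were lowest and 39 highest in embryo 1. The count fell to 29 without embryo 1, was 74 without the filter on low genes and 29 at 4000 UMIs with embryo 2 included, and rose to 334 and 388 in edgeR with and without TMM. Mitochondrial genes led, with mt-Atp6 at 457, 467, 293 and 475 in embryo 1 against 89, 72, 103 and 123 in embryo 5 (log2 range of embryo means 2.12, limma adjusted p = 1.28e-51). Map1lc3a, encoding an LC3 protein of the autophagosome, had 12, 13, 8 and 9 in embryo 1, 23, 23 and 29 in embryo 3, 31, 46, 34 and 34 in embryo 4, and 34, 38, 25 and 50 in embryo 5 (range 1.70, adjusted p = 2.52e-09). The protein-coding gene E330034G19Rik had 26, 24, 22 and 30 in embryo 1, 3, 5 and 3 in embryo 3, 9, 12, 15 and 11 in embryo 4, and 12, 14, 12 and 9 in embryo 5 (range 2.52, adjusted p = 2.71e-08, sister index 0.435). Sisters matched closely for this gene, and its embryos did not. The transcription factor gene Klf17 was the only lineage-list gene called, with 1, 1, 2 and 0 in embryo 1, 3, 2 and 1 in embryo 3, 9, 10, 0 and 3 in embryo 4, and 6, 6, 4 and 9 in embryo 5 (limma adjusted p = 0.0233). The stages shared 14 called genes, among them Bcl2l10, AC133103.5, Alppl2, Zfand5 and 6 mitochondrial genes.

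Some abundant genes were named because they had a sister index of at most 1.2 and no call after thinning. Their low indices at that depth thus follow from the rule. In L2C, Eif1, a translation initiation factor gene, had 41 and 30, 32 and 39, 42 and 50, 52 and 51, and 88 and 73 UMIs (sister index 0.899), and the ribosomal protein gene Rpl41 had 114 to 171 (index 0.957). The histone variant gene H3f3b had an L2C index of 0.839 with 30 to 61. At the 4-cell stage the spliceosome gene Snu13 had 33, 39, 37 and 40 in embryo 1 and 52, 60 and 43 in embryo 3 (index 0.613), and the nucleotide kinase gene Nme2 and the glycine cleavage gene Gcsh had indices of 1.09 and 0.956. With all recovered UMIs, H3f3b (index 5.92) and Rpl41 (4.32) in L2C and Snu13 (3.43) and Nme2 (2.39) at the 4-cell stage did pass the test, while Eif1 in L2C and Gcsh at the 4-cell stage did not. Most of these genes were thus even between sisters only at the thinned depth.

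In the 9 embryos compared, sisters were thus nearer to each other than to cells of other embryos, with the highest sister indices among mitochondrial mRNAs. These mRNAs are abundant, and the index rises with the mean at equal relative spread. The median gene index between sisters was 1.21 in L2C and 1.19 at the 4-cell stage at 15000 UMIs (1 is counting noise alone), and with all recovered UMIs 23.5% and 21.5% of tested genes passed. The limits are the small number of embryos, unknown runs and litters, the loss of 1 pair by thinning, and the sensitivity of gene counts to draw, depth and single embryos of both stages. Genes under a mean of 5 UMIs were left out of the main sister test by choice. Spread from capture and amplification is part of the sister index, and no technical replicates of blastomeres were identified in the tables used. Cells carry names and not barcodes, so shared barcodes between libraries could not be counted.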

How the data were processed

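Cells were chosen from the sample and column names, and the members, gene lists and rules for naming genes were chosen with earlier results of these data known. The authors' gene and isoform tables were deposited as CPM by their label, but each value is a multiple of 1 UMI scaled to 100000 per cell. Whole UMIs were recovered from the deposited values, with 100% of non-zero values whole within a tolerance of 0.1. The authors' deposited score tables were not used, and the authors' table of the run with split oocytes was deposited as whole counts and used as such. The names of that run do not say which pieces came from the same oocyte. Of 161 cell columns of genes, 97 were not used. The authors processed reads with SMRT-Link, scISA-Tools, minimap2, gffcompare, cDNA_Cupcake and SQANTI3 on mm10.

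Cells were thinned without replacement to 15000 UMIs. The sister index of a gene is its Poisson chi-square over sister cells divided by its degrees of freedom. The between-embryo index is the same over embryo means, each weighted by its number of cells. Spread beyond counting is the coefficient of variation left after counting noise is removed. Embryos were tested against each other in limma (trend, log2 of thinned UMIs plus 1, mean of at least 1), with edgeR quasi-likelihood and DESeq2 likelihood ratio tests on unthinned UMIs as alternatives. All tests were two-sided except the chi-square and F-tests, p values were adjusted by Benjamini-Hochberg, and confidence intervals are Wilson intervals. Named genes were the 10 with most spread beyond counting among those called between sisters with an index above 2 in at least 3 embryos, the 8 lowest limma p values per stage, abundant genes with an index of at most 1.2, and called members of gene lists. Other genes were chosen after values were seen. Alternatives were other depths, draws, filters, pseudocounts, distances, tools, isoforms and each embryo left out, and some were added after the data were seen. Software was R 4.3.3 with limma 3.58.1, edgeR 4.0.16 and DESeq2 1.42.0, and Python 3.11.15 with NumPy 2.4.6, pandas 2.3.3, SciPy 1.17.1, statsmodels 0.14.6 and Matplotlib 3.10.9. Gene positions are from GENCODE M21.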

Additional observations from a re-analysis of the deposited data

Results flagged for a closer look

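Among 40 groups of values looked at, 3 held a value far from the rest, and about 1 in 20 would be flagged by chance. The highest summed mitochondrial mRNA of L2C sister cells was 2351 thinned UMIs, in cell 1 of embryo 5, while its sister had 1609. The highest non-sister index of the 4-cell stage was 1.308, in embryo 1. The highest embryo mean of the cumulus and granulosa gene list at the 4-cell stage was 5.25 UMIs, also in embryo 1, where cell 3 had 12 and the others 3, 2 and 4. Most of the list's UMIs came from Hba-a1, a haemoglobin gene, and 11 of its 13 genes were at 0, so the value does not show cumulus or granulosa cells.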

How the results depend on the processing

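Sister cells stayed closer than non-sister cells under all 16 alternatives in L2C and all 15 at the 4-cell stage. The L2C sister index of 1.087 moved to 1.021 at 4000 UMIs and 1.385 for genes with a mean of 5 or more. As 1 minus Spearman, a distance on another scale, the L2C value was 0.491. The 4-cell index of 1.096 moved to 1.053 at 4000 UMIs (with embryo 2 brought in), 1.137 at 25000 (without embryo 3 and a cell of embryo 1), 1.335 for genes with a mean of 5 or more and 1.052 for isoforms. Its 1 minus Spearman value was 0.431. At equal relative spread the index rises with depth and gene mean, so these values do not measure 1 quantity on 1 scale. The difference of 4-cell from L2C (0.00887) reversed to -0.0501 with a mean of 5 or more, -0.0104 for isoforms, -0.0607 as 1 minus Spearman and -0.00185 without L2C embryo 4, with 0.0245 without L2C embryo 5. Genes varying between L2C sisters (7) moved to 3 with the 3-embryo rule, 0 at 4000 UMIs (8 unadjusted in the Poisson dispersion test), 21 at 25000 (5 of 7 kept), 64 at 40000 (7 kept), 3 with a mean of 2 or more, 121 with all recovered UMIs (7 kept), 57 in a fit of all UMIs without embryo 5 (3 kept), and 0 without mitochondrial and ribosomal protein genes and thinned again (70 unadjusted), and ran from 0 to 7 with an embryo left out. Those between 4-cell sisters (29) moved to 13 with the 3-embryo rule, 7 at 4000 UMIs, 44 at 25000 (16 kept), 12, 10, 16 and 16 in other draws (8, 8, 12 and 12 kept), 13 with a mean of 2 or more, 125 with all recovered UMIs (27 kept), 16 isoforms and 12 without mitochondrial and ribosomal protein genes and thinned again (6 kept), and from 7 to 27 with an embryo left out. Genes between L2C embryos (71) moved to 39 with a pseudocount of 0.5, 0 without a filter (957 unadjusted in limma), 477 and 458 in edgeR (64 and 66 kept), 148 in DESeq2 (52 kept), 0 at 4000 UMIs (77 unadjusted), 37, 42, 89 and 25 in other draws (23, 29, 35 and 18 kept), and from 0 to 21 with an embryo left out. Those between 4-cell embryos (153) moved to 74 without a filter (69 kept), 334 and 388 in edgeR (126 and 136 kept), 29 at 4000 UMIs (23 kept), and from 29 to 139 with an embryo left out. The 4-cell gene counts at these depths use the same changed sets of cells. Fewer genes reach the mean at lower depth, and otherwise the cause was not tested. The sign-flip tests paired the sister and non-sister index of each embryo. Embryos could not be paired between stages or by run, because each stage is 1 group of embryos and the cells carry no run. The mean of 5 UMIs in the sister test was a choice.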
